A study of Homo sapiens with 2 samples.

Results

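F-box proteins are the substrate receptors of SCF ubiquitin ligases. Their F-box binds SKP1, which hangs on the cullin CUL1 and the RING protein RBX1, and the rest of the protein holds the substrate that is to be ubiquitinated. The family is named by its substrate-binding part: FBXW proteins carry WD repeats, FBXL proteins leucine-rich repeats, and FBXO proteins other domains or none that is shared. The genes described here were the protein-coding genes whose symbol begins with FBXW, FBXL or FBXO and a digit, without FBXW7. They numbered 61 of 19951 protein-coding genes, with 8 FBXW, 17 FBXL and 36 FBXO genes, and the deposited description of all 61 names an F-box.

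Expression was measured in glioma spheres of U87MG, an established human glioblastoma line, kept for a week under stem cell culture conditions. The shTRIP13 library came from cells infected with lentivirus for an shRNA against TRIP13, an AAA+ ATPase of the spindle checkpoint, and the shcon library from cells with the control lentivirus pGIPZ-CTRL. Both were selected with puromycin for stable clones, and the number of clones is not stated. Each group held 1 library, so no value below has a replicate error, a test or a p-value, and each difference describes these 2 libraries and not the conditions. TRIP13 itself had 23.1 FPKM in the first of them and 11.9 FPKM in the shcon library, against the label. The first is therefore called the library labelled shTRIP13, and each direction given is one between labels.

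Levels are FPKM, reads scaled to exon length and to a total that was common to both libraries. Reads recovered from them summed to 19903836 in the library labelled shTRIP13 and 18871063 in the shcon library, so a gene with an unchanged share of the reads has an FPKM ratio of 1.05, the depth ratio. The log2 ratio is that of FPKM + 1 in the library labelled shTRIP13 over the shcon library, which understates differences of weakly expressed genes. Intervals in brackets are 95% exact (Clopper-Pearson) intervals of an FPKM ratio from the split of the reads, and they cover counting error only. Of markers of glioma and neural stem cells, CD44 (112 against 115 FPKM) and VIM (427 against 442 FPKM) were high in both libraries. NES had 2.21 against 5.23 FPKM and OLIG2 0.339 against 2.72 FPKM, while GFAP, S100B, SOX2 and PROM1 lay below the expression filter. The microglia markers AIF1, CX3CR1 and TYROBP had 0 reads in both libraries, and the 8 microglia and macrophage markers summed to 4.34 FPKM in the library labelled shTRIP13 and 8.70 FPKM in the shcon library. Most of that gap came from TMEM119 (0.696 against 4.40 FPKM), while CSF1R had 3.31 against 3.75 FPKM. The 5 endothelial markers summed to 2.90 against 5.26 FPKM, most of it KDR (2.85 against 4.52 FPKM), and the 5 neuron markers to 9.78 against 11.1 FPKM. The part of these marker differences in the values below was not tested. In bulk RNA, fewer cells of a type and less RNA per cell cannot be told apart.

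The promoters of FBXO5, FBXO2 and FBXO44 are shown because FBXO5 had the highest log2 ratio of the family and because FBXO2 and FBXO44 start within 22 bases of each other and were both lower. Each window runs 5′ to 3′ from 250 bases before to 50 bases after an annotated start, and the sequences are RefSeq's, on GRCh38.p14. The first is 1 of 2 RefSeq starts of FBXO5, at chr6:152982992-152983291 on the minus strand. Capitals mark matches to TTTGAA, the cell cycle homology region (CHR), and to CCAAT, on either strand.
FBXO5: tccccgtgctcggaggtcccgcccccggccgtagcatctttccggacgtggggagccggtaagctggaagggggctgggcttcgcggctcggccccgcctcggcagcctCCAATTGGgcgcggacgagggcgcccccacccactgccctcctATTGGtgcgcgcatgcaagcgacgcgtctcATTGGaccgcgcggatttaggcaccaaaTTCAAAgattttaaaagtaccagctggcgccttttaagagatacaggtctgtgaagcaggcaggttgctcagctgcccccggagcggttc
The CHR match lay at positions -40 to -35 from the start, and the 4 CCAAT matches lay between -141 and -64, the first pair of them overlapping. The window of the other FBXO5 start, at chr6:152983530-152983829 and not shown, held neither motif. Of 35114 promoters of this length, 15.2% held a TTTGAA and 34.6% a CCAAT on either strand. Of the 61 F-box genes, 47 had a promoter entry, with 64 promoters in all. Of these 64, 7.81% held a TTTGAA and 29.7% a CCAAT, both below the shares over all promoters. The F-box promoters had a median of 27 CG dinucleotides, beside 14 over all promoters. The part of base composition in these shares was not tested. TTTGAA was found in promoters of FBXO5, FBXO11, FBXO17, FBXO36 and FBXL14. The E2F forms TTTCCCGC (1.63% of promoters) and TTTGGCGC (0.652%) were also searched, on both strands. Among the F-box promoters, 1 of FBXO9 held TTTGGCGC and 0 held TTTCCCGC. The E-box CACGTG, searched as well, was in 9.38% of the F-box promoters and 7.26% of all. In the next pair, capitals mark the 77 bases that both windows share, read from opposite strands. FBXO2 lies at chr1:11654380-11654679 on the minus strand and FBXO44 at chr1:11654157-11654456 on the plus strand.
FBXO2: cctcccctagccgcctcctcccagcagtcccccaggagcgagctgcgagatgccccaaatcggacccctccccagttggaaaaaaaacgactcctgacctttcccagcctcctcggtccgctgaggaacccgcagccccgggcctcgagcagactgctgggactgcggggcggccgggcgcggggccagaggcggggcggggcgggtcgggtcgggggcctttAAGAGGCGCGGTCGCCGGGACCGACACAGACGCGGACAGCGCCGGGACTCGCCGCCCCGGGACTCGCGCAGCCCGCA
FBXO44: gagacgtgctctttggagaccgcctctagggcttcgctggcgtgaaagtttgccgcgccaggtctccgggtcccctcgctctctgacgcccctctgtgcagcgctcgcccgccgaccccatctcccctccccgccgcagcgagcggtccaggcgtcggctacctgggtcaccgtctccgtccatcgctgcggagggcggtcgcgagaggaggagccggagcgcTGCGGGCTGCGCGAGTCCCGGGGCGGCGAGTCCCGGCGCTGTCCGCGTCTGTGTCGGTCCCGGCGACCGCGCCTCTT
A match of letters in these windows describes the sequence and does not show binding.

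As a family, the F-box genes had a median log2 ratio near 0 and slightly below that of all genes past the expression filter, and the gap was wider among the more abundant of them. Of the 61, 48 had a mean of at least 1 FPKM over both libraries, the filter used for all protein-coding genes, and 13 lay below it. Levels of the 48 had a median of 5.74 FPKM in the library labelled shTRIP13 and 5.16 FPKM in the shcon library, and together all 61 took 0.200% and 0.199% of the reads. The median log2 ratio of the 48 was 0.04, beside 0.12 over all 10671 protein-coding genes past the filter. This small median has no firm direction, since it was -0.02 when each library was divided by its own total and -0.08 with the median ratio of all genes set to 1. The log2 ratio lay above 0 for 25 of 48, beside 60.2% of all genes. Relative to the median of all genes, 22 F-box genes lay above and 26 below. Among the 28 F-box genes with a mean of at least 5 FPKM, 9 lay above and 19 below the median of all genes at that level, with a median log2 ratio of -0.055 beside 0.185, a gap of -0.24 in place of -0.07.

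Few F-box genes differed by 2-fold or more on the log2 ratio. FBXO5 was the 1 gene past 2-fold upwards in the library labelled shTRIP13, and 0 of 48 were past it downwards, where 2.17% of all genes were higher and 4.19% lower. The share of higher genes among all genes past 2-fold was 34.2%. Over the alternatives it ran from 20.2% with the median ratio set to 1 to 40.9% among genes of at least 5 FPKM. Under TPM it was 22.5%, but the filter and the added 1 were kept on that larger scale. There 12183 genes passed in place of 10671, so that value covers weaker genes too. At 1.5-fold, 2 of 48 F-box genes (4.17%) were higher and 4 (8.33%) lower, beside 12.5% and 10.2% of all genes. Counting intervals lay above the depth ratio for 21 of 48 genes and below it for 21, beside 43.2% and 34.0% of all genes, so most members differed between these libraries by more than counting error, as most genes did. From the lower to the upper quartile, log2 ratios ran from -0.20 to 0.34 in the family and from -0.20 to 0.40 over all genes.

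**Figure D1:**
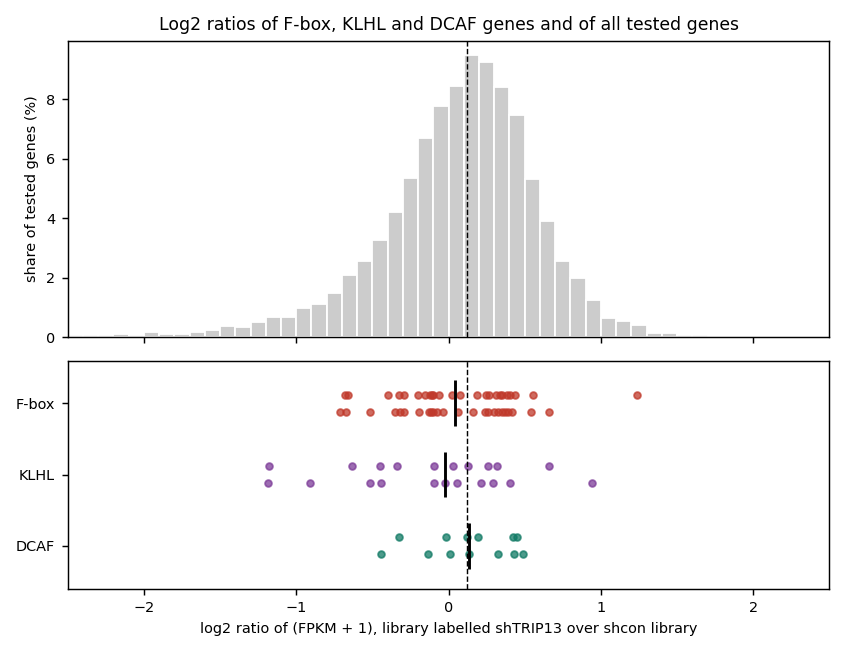
Log2 ratio of FPKM + 1 (x axis, library labelled shTRIP13 over shcon library) for all 10671 protein-coding genes past the filter as a histogram with the share of genes in percent on its y axis (52 genes lie outside the axis), and below it each F-box, KLHL and DCAF gene as a point. Black bars are family medians and the dashed line is the median of all genes, 0.12; FBXO5 is the single F-box point beyond 1.

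Medians of other families of substrate receptors lay on either side of that of the F-box genes. KLHL proteins bind the cullin CUL3 and DCAF proteins reach CUL4 through DDB1. Of 37 KLHL genes 21 passed the filter, with a median log2 ratio of -0.03. None was 2-fold higher and 2 (9.52%) were 2-fold lower or more, beside 2.17% and 4.19% of all genes. These 2 were KLHL24, with 2.93 against 7.95 FPKM, and KLHL38, with 7.97 against 19.3 FPKM. Neither was past 2-fold with 5 in place of 1 added to the FPKM. Of 19 DCAF genes 13 passed, with a median of 0.13 and 0 past 2-fold in either direction, beside the same shares of all genes. The values of the 3 families overlapped over most of their range, as the plot of log2 ratios by family shows.

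Within the family, levels differed far more between genes than between libraries. FBXW5, a receptor for the centriole protein SASS6, was the most abundant F-box gene per length in both libraries, at 55.3 FPKM (3484 reads) in the library labelled shTRIP13 and 40.7 FPKM (2562 reads) in the shcon library. FBXO32, known as atrogin-1 from wasting muscle, came second in both, at 32.2 and 30.4 FPKM. The next place differed. FBXO5 held it in the library labelled shTRIP13, at 17.8 FPKM, and was at place 19 in the shcon library. FBXL19, which encodes a CpG-binding protein, held it in the shcon library at 15.6 FPKM, and had 13.98 FPKM in the library labelled shTRIP13. FBXL5, FBXO7 and FBXW11 followed in both libraries, between 13.2 and 13.5 FPKM in the library labelled shTRIP13 and between 14.4 and 14.7 FPKM in the shcon library. These 3 lay close together.

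**Figure D2:**
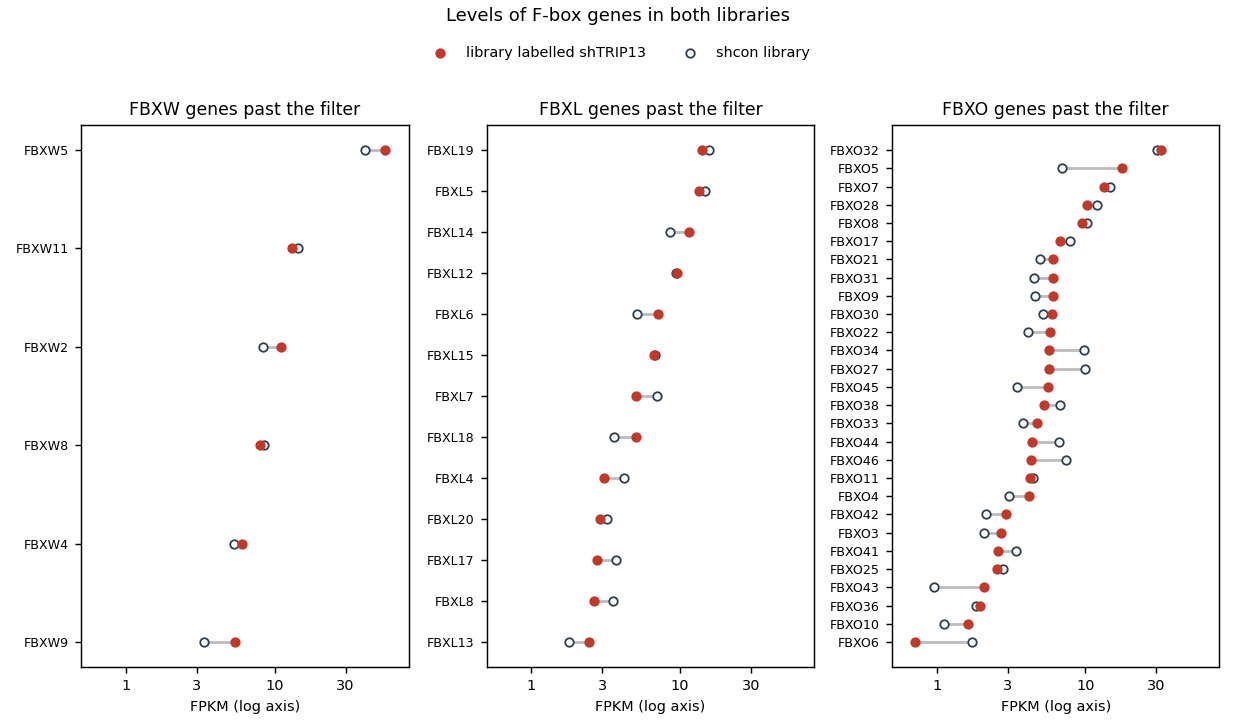
FPKM on a log axis (x) of 47 of the 48 F-box genes past the filter (y), by subfamily, with filled points for the library labelled shTRIP13 and open points for the shcon library. FBXW5 was the highest in both libraries, and FBXO5 shows the widest gap among genes above 3 FPKM, at 17.8 against 6.95 FPKM.

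The F-box genes past the filter with the highest ratios were the Emi pair, FBXO5 and FBXO43. Both encode inhibitors of the anaphase-promoting complex (APC/C), FBXO5 (EMI1) in the mitotic cycle and FBXO43 (EMI2) in the egg. FBXO5 (ENSG00000112029, hg38 chromosome 6, 152970519 to 152983579, minus strand) had 17.8 FPKM from 1320 reads in the library labelled shTRIP13 and 6.95 FPKM from 516 reads in the shcon library. Its FPKM ratio was 2.56 (2.31 to 2.84) and its log2 ratio 1.24, which dropped to 0.93, short of 2-fold, with 5 in place of 1 added to the FPKM. Another annotated gene on the opposite strand shares 4.10% of its exon length. FBXO43 (ENSG00000156509, chromosome 8, 100133360 to 100145800, minus strand) had 2.09 FPKM (160 reads) against 0.954 FPKM (73 reads), a ratio of 2.19 (1.65 to 2.93). Among genes past the filter, it was thus the second F-box gene past 2-fold by FPKM ratio. Its log2 ratio was 0.66, and 1.06 with 0.1 in place of 1. It passed the filter through its level in the library labelled shTRIP13.

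Among the other F-box genes tied to cyclins and mitosis, values went both ways. FBXW5 had a ratio of 1.36 (1.29 to 1.43). FBXO31, which acts on cyclin D1 after DNA damage, had 6.07 against 4.55 FPKM, and FBXO4, also linked to cyclin D1, 4.19 against 3.08 FPKM. For these 3 genes the interval lay above the depth ratio. Lower in the library labelled shTRIP13 were FBXL7, linked to Aurora A, at 5.08 against 7.01 FPKM (ratio 0.725, 0.643 to 0.817), and FBXO28, a MYC cofactor, at 10.3 against 11.9 FPKM. FBXO7 (13.4 against 14.7 FPKM) and FBXW8, which works with the cullin CUL7 (8.02 against 8.50 FPKM), differed least. Of all 9 genes of this group, 5 had intervals above the depth ratio and 4 below it, beside 43.2% and 34.0% of all genes.

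The 5 F-box genes that share an F-box-associated (FBA) domain, FBXO2, FBXO6, FBXO17, FBXO27 and FBXO44, all had lower levels in the library labelled shTRIP13. Not all of these proteins are known to bind sugar chains, but FBXO2 and FBXO6 do so and take part in the disposal of misfolded glycoproteins from the endoplasmic reticulum. FBXO27 (ENSG00000161243, chromosome 19, 38990714 to 39032785, minus strand) had 5.74 FPKM (315 reads) in the library labelled shTRIP13 and 10.04 FPKM (551 reads) in the shcon library. Its ratio was 0.572 (0.496 to 0.658) and its log2 ratio -0.71, the lowest of the 48. FBXO44 had 4.39 FPKM (300 reads) against 6.70 FPKM (458 reads), a ratio of 0.655 (0.564 to 0.759). FBXO17 differed least of the 5, at 6.75 FPKM (649 reads) against 7.91 FPKM (760 reads), a ratio of 0.854 (0.768 to 0.9495).

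The remaining pair of this group was weakly expressed. FBXO6 had 0.712 FPKM (25 reads) in the library labelled shTRIP13 and 1.74 FPKM (61 reads) in the shcon library, a ratio of 0.410 (0.247 to 0.663), and it passed the filter through the shcon library alone. Its log2 ratio of -0.68 became -1.18 with 0.1 in place of 1 added to the FPKM and -1.12 after rescaling to TPM, past 2-fold in both cases. On the larger TPM scale the 1 that was still added weighs less. FBXO2, below the filter, had 0.0604 FPKM (4 reads) against 0.589 FPKM (39 reads), a ratio of 0.103 (0.0266 to 0.284). The intervals of all 5 genes lay below the depth ratio, where 34.0% of all genes past the filter had such an interval, a filter that FBXO2 missed and FBXO6 met through the shcon library. The 5 genes are not independent in position, as FBXO2, FBXO44 and FBXO6 lie next to one another on chromosome 1 and FBXO17 and FBXO27 on chromosome 19.

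Neighbours within 100 kb did not all go the same way. On chromosome 1, FBXO2 (11637018 to 11655785, minus strand) overlaps the start of FBXO44 (11654375 to 11663327, plus strand), and FBXO6 (11664124 to 11674354, plus strand) follows. FBXO2 and FBXO44 share 7.82% and 7.57% of their exon lengths on opposite strands, so reads of this stretch could be assigned to either gene if counting ignored strand. The next expressed gene, MAD2L2, which encodes a HORMA-domain protein that TRIP13 remodels, had 17.3 FPKM in the library labelled shTRIP13 and 17.1 FPKM in the shcon library (ratio 1.01, 0.933 to 1.10). AGTRAP had 46.6 against 49.5 FPKM. On chromosome 19, MRPS12, a mitochondrial ribosomal protein gene on one side of FBXO17, had 39.6 against 22.6 FPKM, while ACP7 on the far side of FBXO27 had 11.5 against 32.5 FPKM.

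**Figure D3:**
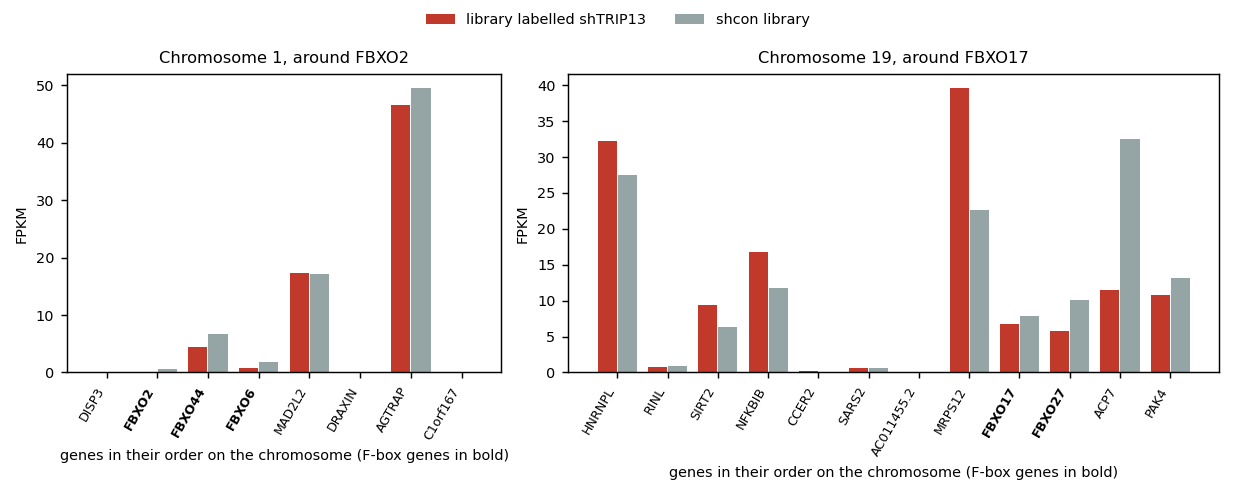
FPKM (y axis) of the protein-coding genes within 100 kb of the 2 groups of F-box genes with an FBA domain, in chromosome order (x axis), with red bars for the library labelled shTRIP13 and grey bars for the shcon library. The F-box genes, in bold, were lower in the library labelled shTRIP13, at 4.39 against 6.70 FPKM for FBXO44 and 5.74 against 10.04 FPKM for FBXO27, while MAD2L2 stood at 17.3 against 17.1 FPKM.

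Besides these, FBXO34 and FBXO46 were the other genes at least 1.5-fold lower on the log2 ratio. FBXO34 had 5.74 FPKM (460 reads) in the library labelled shTRIP13 and 9.78 FPKM (783 reads) in the shcon library, a ratio of 0.587 (0.522 to 0.660). FBXO46 had 4.34 FPKM (297 reads) against 7.44 FPKM (510 reads), a ratio of 0.582 (0.503 to 0.673), and shares 14.4% of its exon length with another gene on its own strand. FBXO34, FBXO46, FBXO27 and FBXO6 thus form the low end of the family, with log2 ratios between -0.71 and -0.66.

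At the high end, FBXO45 and FBXW9 followed the Emi pair. FBXO45, which joins the ligase MYCBP2 in place of CUL1, had 5.59 FPKM (647 reads) in the library labelled shTRIP13 and 3.49 FPKM (404 reads) in the shcon library, a ratio of 1.601 (1.41 to 1.82). FBXW9 had 5.37 FPKM (220 reads) against 3.37 FPKM (138 reads), a ratio of 1.59 (1.28 to 1.99), with 26.4% of its exon length shared with genes on the opposite strand. Both had log2 ratios just short of 1.5-fold, 0.55 and 0.54.

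**Figure D4:**
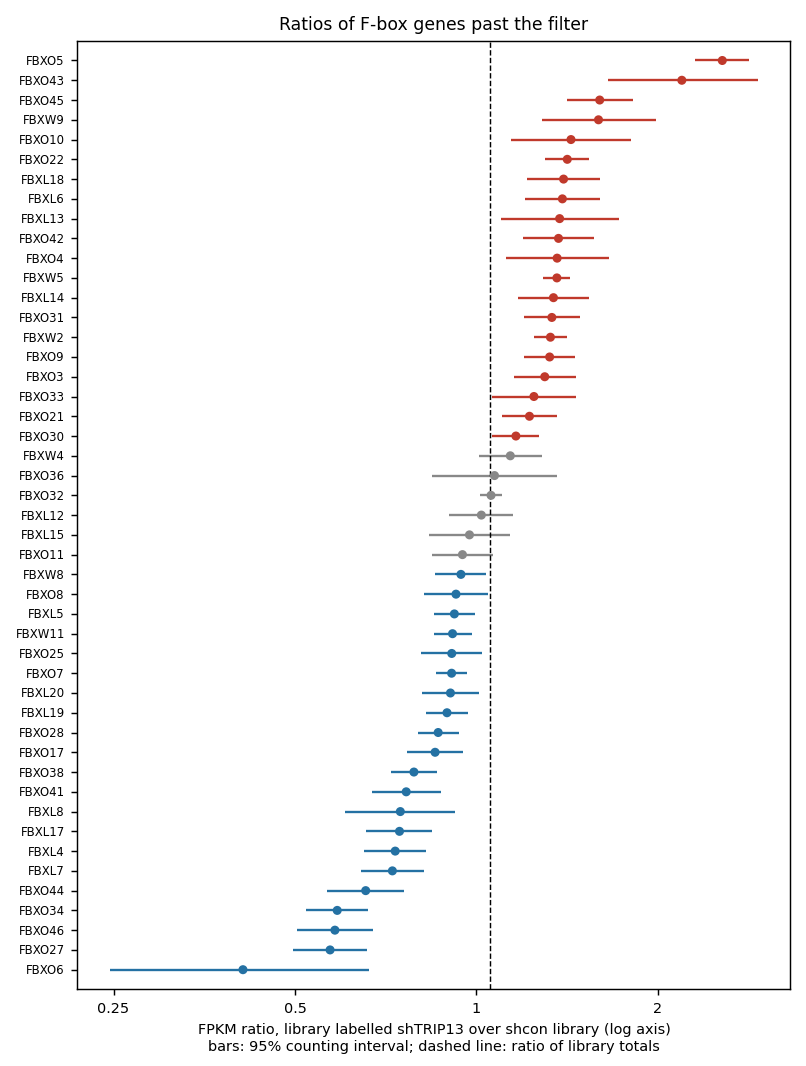
FPKM ratio on a log axis (x, library labelled shTRIP13 over shcon library) of 47 of the 48 F-box genes past the filter (y), with bars for the 95% counting interval and a dashed line at the depth ratio of 1.05. Intervals of 20 genes lie above the line (red), those of 21 below it (blue) and those of 6 hold it (grey); FBXO5 is at the top with 2.56 and FBXO6 at the bottom with 0.410.

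Of the 6 receptors listed for the control of NF-kB, beta-catenin and Snail, 4 had intervals above the depth ratio and 1 below it, beside 43.2% and 34.0% of all genes, with a median log2 ratio of 0.33. The highest was FBXO45, at the ratio of 1.601 given above. FBXW11, one of the pair of beta-TrCP proteins that mark NF-kB inhibitors and beta-catenin, had 13.2 FPKM in the library labelled shTRIP13 and 14.4 FPKM in the shcon library, a ratio of 0.913 (0.849 to 0.981). Its paralog BTRC, which is not counted among the 6, had 3.31 against 3.34 FPKM (ratio 0.991, 0.864 to 1.14). That ratio was not distinguishable from the depth ratio. Neither beta-TrCP gene had a higher FPKM in the library labelled shTRIP13 than in the shcon library. FBXL14, a receptor for the Snail protein, had 11.5 against 8.57 FPKM, and FBXW2 11.1 against 8.34 FPKM, with intervals above the depth ratio. FBXO10, which acts on BCL2, had 1.62 against 1.13 FPKM, but shares 48.0% of its exon length with another gene on its strand. FBXO11, the receptor for BCL6, had 4.25 against 4.49 FPKM (ratio 0.948, 0.845 to 1.06), an interval that holds the depth ratio. FBXO11 shares 26.9% of its exon length with genes on the opposite strand.

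FBXL5, FBXL4 and FBXL20 had lower levels in the library labelled shTRIP13, with intervals below the depth ratio. FBXL5, which senses iron and marks the regulator IREB2, had 13.5 FPKM in the library labelled shTRIP13 and 14.7 FPKM in the shcon library, a ratio of 0.919 (0.849 to 0.995). FBXL4, whose loss raises mitophagy, had 3.06 against 4.17 FPKM (ratio 0.733, 0.650 to 0.826). FBXL20, known from synapses, had 2.90 against 3.20 FPKM.

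Receptors known from muscle wasting were present without a large difference. FBXO32 had 4611 reads in the library labelled shTRIP13 and 4361 in the shcon library, the most of any F-box gene, and its ratio of 1.06 (1.01 to 1.10) held the depth ratio. FBXO30 had 6.01 against 5.17 FPKM and FBXO21 6.07 against 4.96 FPKM, both with intervals above the depth ratio. FBXO40, a muscle gene, had 0 reads in both libraries.

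Of the receptors linked to p53 and DNA repair, FBXO22 differed most. FBXO22, which acts on methylated p53 and KDM4 demethylases, had 5.80 FPKM (1330 reads) in the library labelled shTRIP13 and 4.10 FPKM (940 reads) in the shcon library, a ratio of 1.41 (1.301 to 1.54). FBXO42, a p53 receptor, had 2.92 against 2.14 FPKM. FBXL12 had 9.53 against 9.35 FPKM and FBH1, an F-box helicase, 11.2 against 11.8 FPKM, with ratios of 1.02 (0.902 to 1.15) and 0.949 (0.883 to 1.02). The first of these 2 intervals held the depth ratio and the second lay below it.

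The remaining genes past the filter had log2 ratios between -0.32 and 0.41. Above the depth ratio were FBXL6 (7.15 against 5.15 FPKM), FBXL18 (5.05 against 3.62), FBXL13 (2.46 against 1.79), FBXO9, a receptor in mTOR signalling (6.04 against 4.56), FBXO3 (2.71 against 2.09) and FBXO33 (4.75 against 3.82). Below it were FBXL17, which removes faulty BTB dimers (2.77 against 3.72), FBXL8 (2.64 against 3.53), FBXO38 (5.31 against 6.74), the neuronal FBXO41 (2.596 against 3.39), FBXL19, FBXO25 (2.55 against 2.81) and FBXO8 (9.49 against 10.3). The intervals of FBXW4, FBXO36 and FBXL15 held the depth ratio. Among the genes named in this paragraph, FBXL6 shares 37.0% of its exon length with other genes, FBXL8 30.9% and FBXL15 27.7%. For FBXL8 most of it, 26.8%, lies on its own strand. The log2 ratios of FBXL12, FBXO32 and FBXO36 lay near 0 and changed sign under a rescaling, and no direction is read for them.

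Of the 13 genes below the filter, 5 had fewer than 20 reads over both libraries, FBXO40 and FBXO47 with 0 reads in each. The other 8 included 3 with an at least 2-fold lower read number in the library labelled shTRIP13, FBXO2, FBXL16 (11 against 49 reads, ratio 0.224, 0.105 to 0.438) and FBXO24 (8 against 22 reads, 0.364, 0.140 to 0.848). Among all protein-coding genes below the filter with that many reads, 29.3% were lower and 7.60% higher by 2-fold or more. FBXL22 had 16 against 8 reads, a ratio of 2 whose interval (0.808 to 5.40) held the depth ratio. FBXO24 and FBXL22 share 26.7% and 26.6% of their exon lengths with a gene on the opposite strand. FBXL2, just under the filter, had 1.10 against 0.572 FPKM (163 against 85 reads, ratio 1.92, 1.47 to 2.52), and FBXO48 had 100 against 65 reads.

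F-box genes with other symbols lay outside the rule and are given for comparison. CCNF, cyclin F, which marks the ribonucleotide reductase subunit RRM2, had 6.26 FPKM (765 reads) in the library labelled shTRIP13 and 2.81 FPKM (343 reads) in the shcon library, a ratio of 2.23 (1.96 to 2.54). SKP2, the receptor for the CDK inhibitor p27 (CDKN1B), had 11.8 against 7.73 FPKM, a ratio of 1.52 (1.37 to 1.70). CCNF and FBXO5 had the highest FPKM ratios among the F-box genes named here under any symbol. KDM2A (12.2 against 10.6 FPKM), KDM2B (3.90 against 4.34) and FBXW7 (2.22 against 2.09) differed less.

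The common parts of the SCF ligase had modest ratios. The adaptor SKP1 had 12.9 FPKM in the library labelled shTRIP13 and 9.92 FPKM in the shcon library, the scaffold CUL1 47.0 against 43.1 FPKM, and the RING proteins RBX1 and RNF7 16.5 against 18.97 and 22.1 against 16.9 FPKM. None of these 4 was past 1.5-fold, where 12.5% of all genes were higher and 10.2% lower. Their median log2 ratio was 0.24, beside 0.12 over all genes. Of 8 genes for E2 enzymes and ARIH1, the median was 0.20, from UBE2D1 (7.93 against 10.9 FPKM) to UBE2G1 (15.99 against 12.3 FPKM). Of 11 genes past the filter for neddylation of the cullin and exchange of receptors, the median was 0.19, from DCUN1D3 (3.93 against 5.43 FPKM) to UBE2F (3.04 against 1.85 FPKM).

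The COP9 signalosome, which removes NEDD8 from cullins, was higher gene by gene. All 9 subunit genes had intervals above the depth ratio, beside 43.2% of all genes, with a median log2 ratio of 0.51. COPS3 had 38.1 against 19.1 FPKM (ratio 1.99, 1.85 to 2.15), COPS7B 11.1 against 5.78 FPKM and COPS2, the lowest, 14.1 against 11.3 FPKM. The median stayed between 0.36 and 0.54 over the alternatives.

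Genes of the APC/C, which FBXO5 inhibits, mostly had higher levels in the library labelled shTRIP13 too. Of 18 genes for its subunits, activators and E2 enzymes, 16 had intervals above the depth ratio and 1 below it, beside 43.2% and 34.0% of all genes, with a median log2 ratio of 0.53. A single gene was at least 2-fold higher, beside 2.17% of all genes. It was UBE2C, an E2 enzyme of the complex, at 226 against 103 FPKM, and its log2 ratio of 1.13 became 0.990 with the median ratio set to 1. The subunit CDC23 had 13.4 against 7.05 FPKM, the activator CDC20 89.3 against 57.4 FPKM and the activator FZR1 18.95 against 12.6 FPKM. CDC26 was the exception, at 10.1 against 13.7 FPKM.

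**Figure D5:**
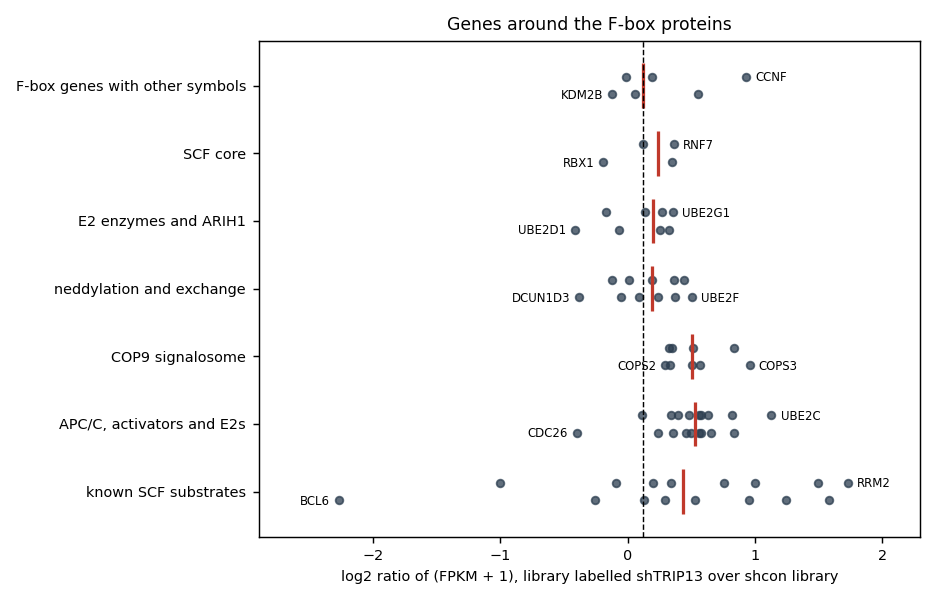
Log2 ratio of FPKM + 1 (x axis, library labelled shTRIP13 over shcon library) of genes past the filter that work with or are acted on by F-box proteins, 1 point per gene and 1 row per list (y axis). Red bars are list medians and the dashed line is the median of all genes, 0.12; the COP9 and APC/C lists have medians of 0.51 and 0.53, and BCL6 is the lowest substrate transcript.

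Transcripts of the known SCF substrates listed here included larger differences than those of most receptors. The list was chosen with earlier results of these data known, so the contrast does not extend to SCF substrates in general. Ubiquitination acts on the proteins, which were not measured here. Of 16 substrate genes past the filter, FBXO5 among them, 5 were past 2-fold upwards and 2 past it downwards, beside 2.17% and 4.19% of all genes. RRM2, the substrate of CCNF, had 46.5 against 13.3 FPKM, CDC25A 12.7 against 3.57 FPKM, CCNE1 (cyclin E1) 12.5 against 3.78 FPKM and CDT1, the replication licensing factor, 21.2 against 10.1 FPKM. These are genes of the G1/S transition. BCL6, a transcriptional repressor, had 5.41 FPKM (623 reads) against 29.8 FPKM (3435 reads), while its receptor FBXO11 stood at 4.25 against 4.49 FPKM. NFKBIA, an NF-kB inhibitor marked by beta-TrCP, had 25.4 against 51.9 FPKM, and CTNNB1 (beta-catenin) 26.2 against 28.0 FPKM. Some of these calls ended under alternatives. CDT1 lay at the threshold, with a log2 ratio of 1.001, and had 0.93 with own totals, 0.94 under TPM, 0.87 with the median ratio set to 1 and 0.80 with 5 in place of 1 added to the FPKM. With that last setting CCNE1 had 0.991 and NFKBIA, at -1.005 as reported, had -0.91. IREB2, the substrate of FBXL5, had 7.94 against 7.19 FPKM.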

How the data were processed

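The members, the gene lists and the rule for named genes were chosen with earlier results of these data known. Per the labels' protocols, total RNA was extracted with TRIZOL and libraries were made with a NEBNext Ultra kit. The authors deposited FPKM values for 58735 genes. Per the submitters' processing notes, build hg38 and the tools featureCounts 1.5.0-p3, HISAT2 2.0.5 and edgeR were in use, with no role or setting given. Whether counting used strand, and which annotation, is not given in the sources used here, and the identifiers and positions of 58735 genes equalled GENCODE release 29. Overlapping genes could therefore share reads, and shared exon length was taken from that release.

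FPKM times gene length was a whole multiple of 1 step in both libraries (100% of genes within 0.01 of a read), which gave the reads. FPKM were otherwise used as deposited, with no correction for the depth ratio of 1.05. Genes were compared as log2 of FPKM + 1 among protein-coding genes with a mean of at least 1 FPKM, and a gene was called at a log2 ratio of 1 or more, or -1 or less. Labelled groups held 1 library each, so no test was run. Genes named were the 10 highest and 10 lowest log2 ratios, those past 2-fold, the 5 most abundant, members of role lists, genes below the filter with at least 20 reads and a 2-fold read ratio, up to 3 at each end of other lists, and TRIP13 and FBXW7. The other members, and MAD2L2 and further neighbours, were added after their values were seen. The values of 1 member past the filter are not reported here, though counts and medians over the family include it. Calculations were tested on simulated data. The software was scipy 1.17.1, pandas 2.3.3, numpy 2.4.6 and matplotlib 3.10.9 under Python 3.11.15.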

Additional observations from a re-analysis of the deposited data

Results flagged for a closer look

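FBXW11P1, a processed pseudogene of FBXW11, lies outside the protein-coding genes compared above. It had 12 reads in the library labelled shTRIP13 and 3 in the shcon library, a ratio of 4 with a counting interval of 1.08 to 22.1 that lay just above the depth ratio, while FBXW11 itself had 1422 and 1558 reads. Reads of such a copy can be shared with its parent gene in counting, and the value rests on few reads.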

How the results depend on the processing

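No paired analysis was possible because there is 1 library a group, and none could be left out. Leaving out genes that share over 20% of their exon length was added after seeing the data. It left 41 F-box genes past the filter, 1 at least 2-fold higher and 0 lower, with a median log2 ratio of 0.024. The F-box genes at least 2-fold higher, 1 as reported, were 2 with a pseudocount of 0.1, 2 with 5 added to the reads, 2 at 1.5-fold and 0 with a pseudocount of 5. Those at least 2-fold lower, 0 as reported, were 1 with a pseudocount of 0.1 or 5 added to the reads, 3 under TPM (FBXO2, FBXO6 and FBXL16) and 4 at 1.5-fold. The TPM setting kept the filter and the pseudocount at 1 on its larger scale, so both were weaker and 53 F-box genes passed in place of 48. FBXO2 and FBXL16 lie below the filter on FPKM. The F-box median log2 ratio was 0.045 as reported and turned to -0.055 among genes of at least 5 FPKM, -0.036 under TPM, -0.080 with the median ratio set to 1 and -0.021 with own totals. The median of all genes moved by -0.12 under TPM and with the median ratio set to 1, so values near 0 are read against it. Counts over all genes at least 2-fold higher, 232 as reported, were 408 and 64 with pseudocounts of 0.1 and 5, 417 with 5 added to the reads, 138 with the median ratio set to 1 and 1334 at 1.5-fold. Lower genes, 447 as reported, were 677, 180, 694, 280 at 5 FPKM, 956 under TPM and 1084 at 1.5-fold. Of the 48 F-box genes past the filter, 45 kept their direction under 8 alternatives, 22 above 0 and 23 below. Only TPM, own totals and the median ratio set to 1 could change a sign. Other filters and pseudocounts, and 5 added to the reads, cannot. Low read numbers limit FBXO2, FBXO6, FBXL16, FBXL22 and FBXO24 most.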
